A study of Mus musculus with 2 samples.

Results

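The Hox genes encode homeodomain transcription factors that give cells of the embryo their position along the head to tail axis. In the mouse they lie in 4 clusters, HoxA, HoxB, HoxC and HoxD, and are numbered by paralogue group, so that genes of one number in different clusters descend from the same ancestral gene. Low numbers are expressed early and reach far forward, into the hindbrain, and high numbers are expressed late and towards the tail, limbs and genital tract. In undifferentiated embryonic stem cells the clusters are known as Polycomb targets that carry marks of both active and silent chromatin and give little transcript. Msl1 and Nsl1 are the scaffold subunits of MSL and NSL, the complexes that hold Mof, an enzyme that acetylates histone H4.

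The read levels of an Msl1 and an Nsl1 ChIP-seq library were examined at 38 Hox genes, among 22357 protein-coding genes of the annotation. The members were 10 genes of HoxA, 10 of HoxB, 9 of HoxC and 9 of HoxD, taken from a list of names. Both libraries came from wild type mESCs, which are pluripotent mouse embryonic stem cells, on a 129P2/OlaHsd background at passage 26. E14 stands in the field for age. The paper gives E14.wt as the name of its male mESCs, so it was not read as an age of an embryo. The labels name neither a treatment nor a control precipitation, and no Input library was used here. Each antibody had 1 library, the kits differed between the libraries, and read length was 50 bases in one (Msl1) and 36 in the other. Any difference between Msl1 and Nsl1 therefore compares 2 libraries, cannot be told apart from kit and read length, and was given no p-value.

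The Msl1 library held 19483142 distinct nuclear reads and the Nsl1 library 24883001, where a distinct read is 1 read kept per position and strand. The level at a gene was the number of reads centred within 500 bases of its transcription start site (TSS), divided by the level 50 to 200 kb outside its cluster on both sides, called the flank level. For a whole cluster, reads per kb from its first to its last listed gene were divided by the same flank level. The ranges in brackets are exact 95% Poisson intervals, which cover counting error only and treat the flank level as known. The TSSs of 11 marker genes of mESCs had a median of 2.80 times the level around them in the Msl1 library, from 1.52 at Dppa5a to 4.24 at Klf4, and 1.46 times in the Nsl1 library, against 1.85 and 1.68 over all protein-coding TSSs. These are levels of antibody signal and not of transcript, so the labelled cell type was not checked by them. A binding level in a population cannot tell apart fewer cells with signal and less signal per cell.

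The Msl1 level was raised across all 4 clusters over their flanks, and most across HoxA and HoxD, whereas the Nsl1 level was raised across HoxA and HoxD only and by less. HoxA, the cluster with genes for branchial arches, lung and limb, covers chr6:52112350-52210874 of mm9 on the reverse strand. It held 1801 Msl1 reads, or 18.3 per kb against 9.68 per kb in the flanks, a ratio of 1.89 (1.80 to 1.98). It held 1487 Nsl1 reads, or 15.1 per kb against 12.3 per kb in the flanks, a ratio of 1.23 (1.16 to 1.29). Both intervals lay above the flank level, and they did not overlap each other. In the 10 kb next to the lower-coordinate end of HoxA, which lie outside these bounds, Msl1 was at 1.90 to 2.69 times in steps of 2.5 kb. HoxD, at chr2:74506367-74603200 on the forward strand and best known from limb and genital development, gave nearly the same pair of values. Its ratio was 1.96 (1.86 to 2.05) from 1647 Msl1 reads and 1.22 (1.15 to 1.29) from 1262 Nsl1 reads.

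HoxB and HoxC stood lower. HoxC, at chr15:102751534-102867274 on the forward strand, had a ratio of 1.27 (1.21 to 1.33) from 1896 Msl1 reads and of 0.965 (0.917 to 1.01) from 1567 Nsl1 reads. HoxB, at chr11:96055630-96229570 on the forward strand, had a ratio of 1.15 (1.11 to 1.19) from 3495 Msl1 reads and of 0.986 (0.952 to 1.02) from 3312 Nsl1 reads. In Nsl1 neither cluster could be told from its flanks. HoxB is longer than the others because Hoxb13 lies far from Hoxb9. The stretch from the start of Hoxb13 to Hoxb9, which takes in Hoxb13 itself, covers 77.1 kb. In Msl1 that stretch was at 0.997 times the flank level on average (0.944 to 1.05), and the 96.8 kb from Hoxb9 to Hoxb1 were at 1.27 times (1.22 to 1.33). Msl1 was not even along the former. Steps of 2.5 kb centred 8.75 and 31.25 kb from its Hoxb13 end were at 1.90 and 0.275 times. In Nsl1 the same stretches were at 0.938 times (0.889 to 0.988) and 1.02 times (0.979 to 1.07).

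The order depended on the background. The lower-coordinate flank of HoxB holds Snf8, Ube2z and Atp5g1, which had Nsl1 levels from 3.16 to 7.56 times at their TSSs, and the flank level of HoxB was the highest of the 4, at 17.5 Msl1 reads and 19.3 Nsl1 reads per kb. Against the flank on its lower-coordinate side alone, its Msl1 ratio turned to 0.915 (0.885 to 0.946), and against the other side alone it was 1.55 (1.50 to 1.60). With 2 kb around TSSs left out, the flanks of HoxB still held 15.9 Msl1 reads per kb, and its ratio was 1.26 (1.22 to 1.30). The clusters also had a higher GC content than their flanks, 48.9% to 49.95% against 39.3% to 46.1%. Against genome bins of 1 kb with the same GC content, the Msl1 ratios were 1.45 (1.39 to 1.52) for HoxA, 1.77 (1.71 to 1.83) for HoxB, 1.43 (1.37 to 1.50) for HoxC and 1.35 (1.28 to 1.41) for HoxD. All 4 stayed above 1, but HoxB then stood highest and HoxD lowest. The Nsl1 ratios by that rule were 1.05 (0.993 to 1.10) for HoxA and 1.38 (1.33 to 1.43) for HoxB. They were 0.980 (0.932 to 1.03) for HoxC and 0.921 (0.871 to 0.974) for HoxD, so the Nsl1 excess over HoxA and HoxD did not hold and that over HoxB appeared.

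**Figure D1:**
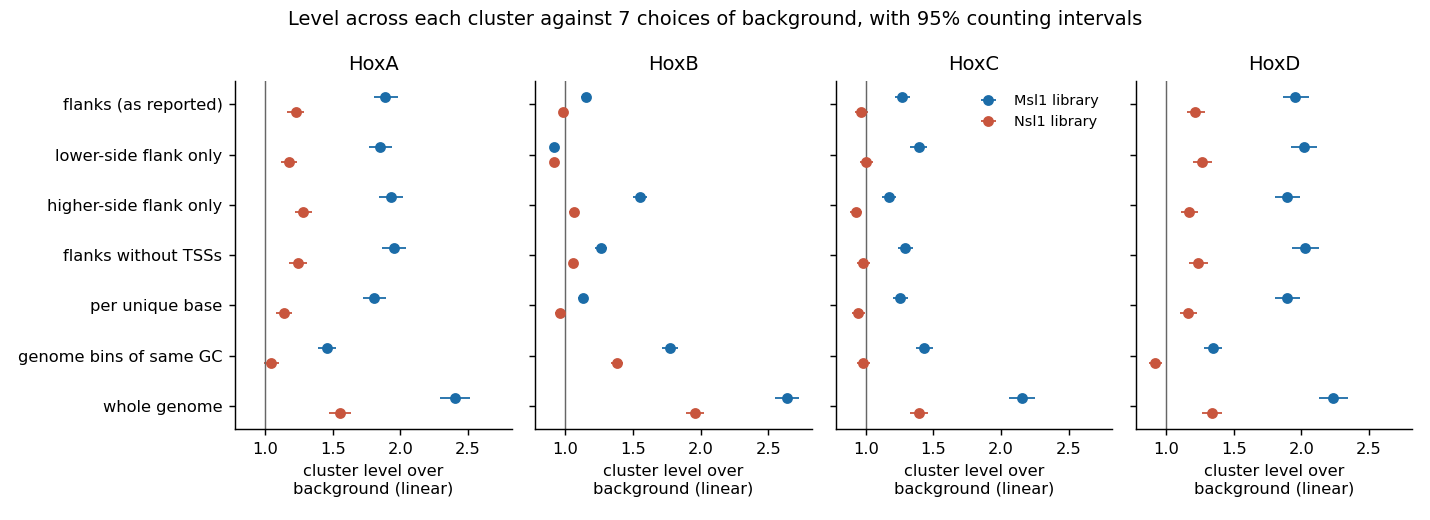
Level across each Hox cluster (x axis, linear) against 7 choices of background (rows) in the Msl1 library (blue) and the Nsl1 library (red), with exact 95% Poisson intervals. Msl1 lies to the right of Nsl1 in every row except HoxB against its lower-coordinate flank (0.915 and 0.917), and every Msl1 point except that one lies above 1.

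Over the 4 clusters together, which cover 485 kb, the Msl1 ratio was 1.40 (1.37 to 1.43) and the Nsl1 ratio 1.05 (1.03 to 1.08). With 1 kb on each side of every Hox TSS left out, the Msl1 ratio was still 1.27 (1.24 to 1.30), and the Nsl1 ratio fell to 1.01 (0.983 to 1.04), which cannot be told from the flank level. Per base with a read-length word that occurs once in the genome, the Nsl1 ratio was 1.02 (0.993 to 1.04), again with an interval that holds 1. Among windows of 100 kb over the genome, a Msl1 level above that of HoxA was found in 1.36%, above HoxB in 0.676%, above HoxC in 2.81% and above HoxD in 2.21%. For Nsl1 the same shares were 6.23%, 1.39%, 13.8% and 17.3%. By this measure, which uses no flank, HoxB had the highest level of the 4 in both libraries. It takes no account of GC content, and the clusters were not cut to 100 kb. Genome bins with the GC content of HoxB held 11.3 Msl1 reads per kb, against 7.62 over the whole genome.

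**Figure D2:**
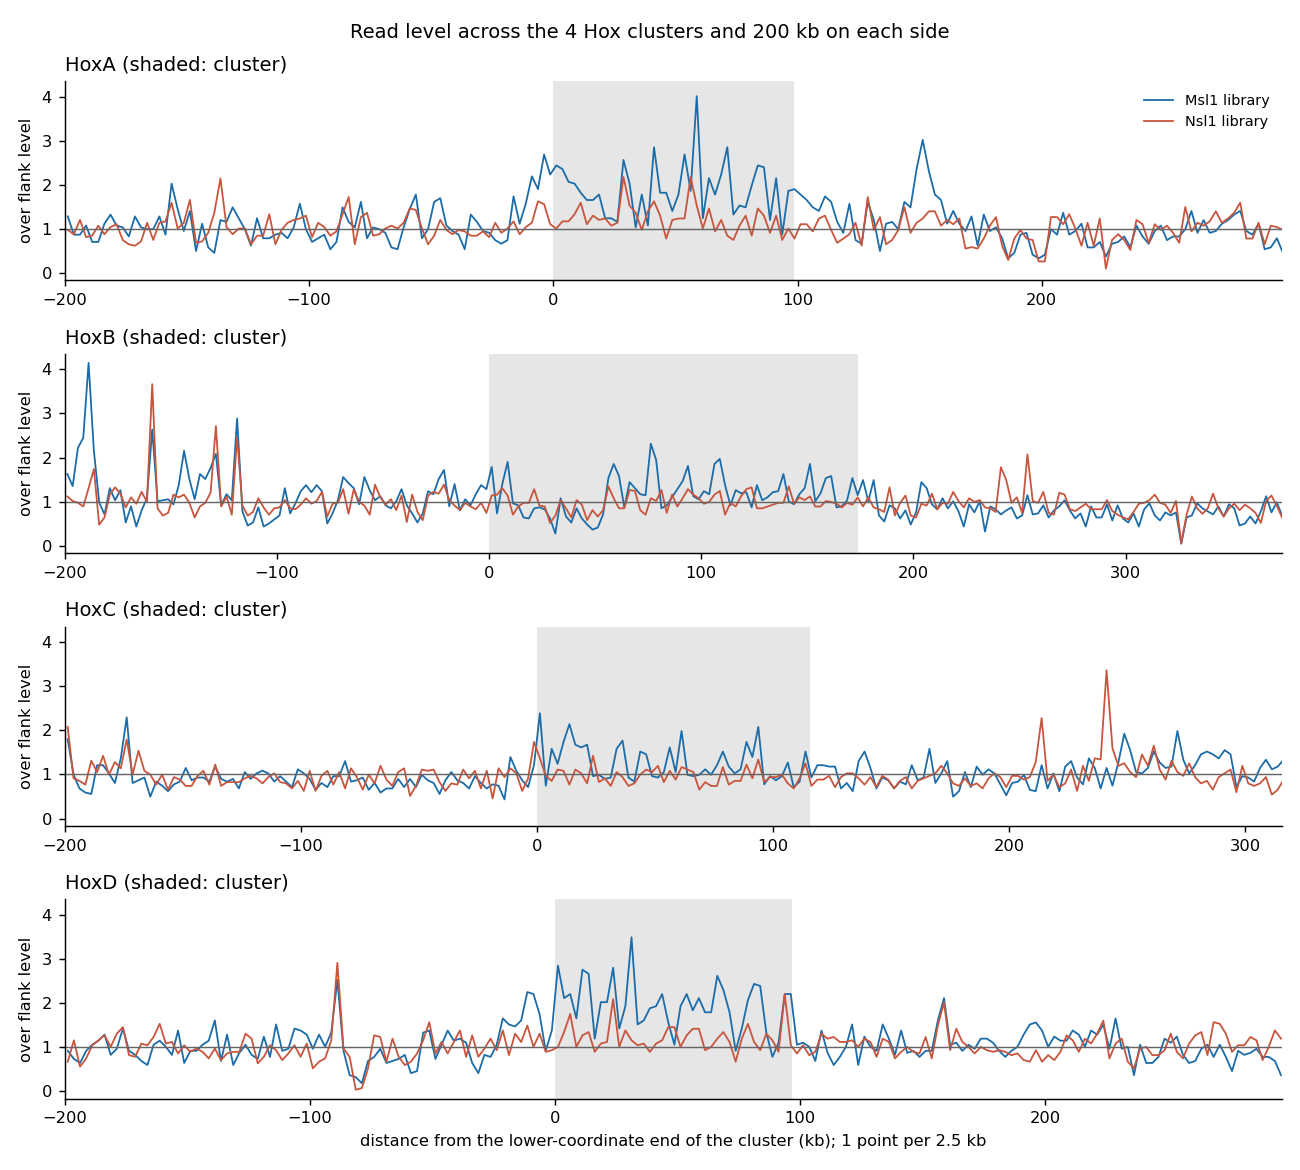
Read level in steps of 2.5 kb over the flank level (y axis) across each Hox cluster (shaded) and 200 kb on both sides, against the distance in kb from the lower-coordinate end of the cluster (x axis), for Msl1 (blue) and Nsl1 (red). Msl1 stays above the flank level through most of HoxA and HoxD (1.89 and 1.96 times on average). It averages 0.997 times from Hoxb13 to Hoxb9, with Hoxb13 included. At HoxB, HoxC and HoxD the highest Nsl1 steps lie outside the clusters.

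Summed over the clusters, Msl1 was highest next to start sites. Within 1 kb of an annotated Hox start, over 122 kb in all, the Msl1 level was 1.82 times the flanks (1.76 to 1.89) and the Nsl1 level 1.20 times (1.15 to 1.25). Exons farther away were at 1.57 times in Msl1 (1.50 to 1.65) and 1.12 times in Nsl1 (1.06 to 1.18). Introns were at 1.35 times (1.30 to 1.41) and 1.03 times (0.989 to 1.07). Bases outside all transcripts were at 1.01 times in Msl1 (0.966 to 1.06) and 0.922 times in Nsl1 (0.881 to 0.964), and 80.1 of these 121 kb lay in HoxB. In HoxA and HoxD, where little lies outside transcripts, those bases were at 1.43 times (1.18 to 1.71) and 1.72 times (1.40 to 2.10) in Msl1. The order was not the same in each cluster. In HoxB, Msl1 was at 1.47 times in exons (1.36 to 1.58) and 1.39 times within 1 kb of a start (1.29 to 1.50). In HoxA it was at 1.81 times in introns and 1.68 times in exons, and in HoxD at 1.59 times in introns, below the value outside transcripts. In HoxC, bases outside transcripts were at 1.36 times, exons at 1.26 times and introns at 1.06 times.

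The sequences upstream of the start sites show what these promoters are made of. They are given for the member with the highest sum of both ratios in HoxA, HoxC and HoxD and for the lowest member of all, read from mm9 5′ to 3′ along the gene, with every CG in capitals. Bases that belong to an untranslated region of a longer gene model were left out. The stretch of Hoxa13 ends 79 bases before the start used, and no stretch is given for HoxB.
Hoxd1, chr2:74600787-74601036, forward strand: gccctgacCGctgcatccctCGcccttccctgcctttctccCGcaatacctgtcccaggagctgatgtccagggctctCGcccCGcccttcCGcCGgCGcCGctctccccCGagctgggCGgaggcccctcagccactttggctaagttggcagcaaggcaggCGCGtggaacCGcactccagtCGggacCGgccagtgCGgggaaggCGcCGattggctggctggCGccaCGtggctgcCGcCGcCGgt
Hoxa7, chr6:52167505-52167754, reverse strand: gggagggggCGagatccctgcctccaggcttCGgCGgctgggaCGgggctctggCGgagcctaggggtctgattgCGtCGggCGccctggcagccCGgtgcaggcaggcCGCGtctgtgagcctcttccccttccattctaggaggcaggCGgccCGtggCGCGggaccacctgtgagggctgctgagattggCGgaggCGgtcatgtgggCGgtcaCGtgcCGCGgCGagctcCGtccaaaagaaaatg
Hoxc12, chr15:102766938-102767187, forward strand: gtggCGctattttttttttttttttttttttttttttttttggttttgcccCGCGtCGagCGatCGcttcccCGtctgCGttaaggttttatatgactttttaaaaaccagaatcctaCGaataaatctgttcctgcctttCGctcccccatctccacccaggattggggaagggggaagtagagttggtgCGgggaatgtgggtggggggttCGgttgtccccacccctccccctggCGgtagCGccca
Hoxa13, chr6:52210875-52211046, reverse strand: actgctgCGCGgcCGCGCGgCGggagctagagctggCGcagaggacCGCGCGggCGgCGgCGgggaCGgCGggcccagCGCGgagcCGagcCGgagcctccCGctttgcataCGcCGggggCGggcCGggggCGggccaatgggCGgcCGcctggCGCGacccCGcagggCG
The first stretch, of Hoxd1, lies in an exon of the uncharacterised transcript 6720416L17Rik, that of Hoxa7 in an intron of a longer Hoxa7 model, and the other 2 between genes. Hoxd1 has 24 CG in 250 bases, Hoxa7 has 23, and Hoxc12 has 14 and a long run of T. The densest is the lowest member by read level, Hoxa13, with 31 CG in 172 bases at a GC content of 83.1%.

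At the 38 start sites, Msl1 was at 2 or more times the flank level at 19 and Nsl1 at 5. Of the Nsl1 set, Hoxa3, Hoxa7 and Hoxd1 were also in the Msl1 set, and Hoxa4 and Hoxc13 were not. For scale, 46.3% of all protein-coding TSSs in Msl1 and 40.8% in Nsl1 were at 2 or more times the level 50 to 200 kb around each of them. The median over the members was 1.99 for Msl1, with a range from 0.620 to 4.94, and 1.39 for Nsl1, with a range from 0.570 to 3.74. The interval lay above the flank level at 23 members for Msl1 and 10 for Nsl1, and below it at none. The smallest Msl1 level counted as 2 times was that of Hoxc9 at 2.02 and the largest left out that of Hoxa6 at 1.96. For Nsl1 these were Hoxc13 at 2.35 and Hoxd9 at 1.78. The windows held between 6 and 50 reads, so that many neighbours in this order do not differ beyond counting error.

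By a rule that can be applied to any gene, with flanks 50 to 200 kb from the TSS itself, 14 of the 38 Hox TSSs were at 2 or more times the level around them in Msl1, or 36.8%, against 46.3% of 22278 protein-coding TSSs. In Nsl1 it was 5 of 38, or 13.2%, against 40.8%. The interval lay above the surrounding level at 26 of 38 in Msl1, or 68.4%, against 52.8%, and at 10 of 38 in Nsl1, or 26.3%, against 50%. The medians were 1.77 for Hox genes and 1.85 for all protein-coding genes in Msl1, and 1.42 and 1.68 in Nsl1. By this rule the flanks of genes in all 4 clusters can take in parts of their own cluster. The Msl1 level of Hoxd1 was then 4.05 in place of 4.94, and that of Hoxa2 1.75 in place of 2.17.

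**Figure D3:**
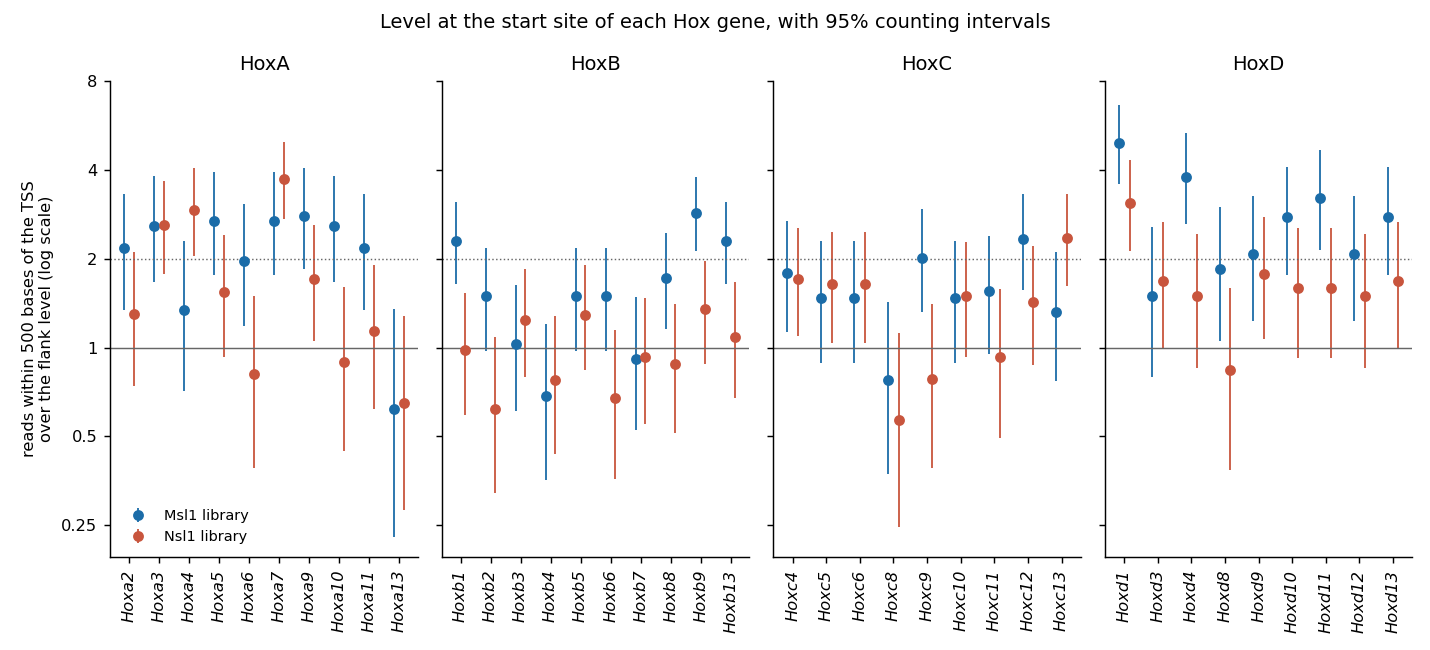
Reads within 500 bases of the TSS over the flank level (y axis, log scale) for each Hox gene (x axis, by cluster and paralogue group) in the Msl1 library (blue) and the Nsl1 library (red), with exact 95% Poisson intervals. The solid line is the flank level and the dotted line 2 times that level, which 19 Msl1 and 5 Nsl1 points reach, with Hoxd1 the highest Msl1 point at 4.94 and Hoxa7 the highest Nsl1 point at 3.74.

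Of the 11 genes of paralogue groups 1 to 4, which pattern the hindbrain, neck and branchial arches, 5 were at 2 or more times in Msl1 and 3 in Nsl1. Over all protein-coding TSSs around their own flanks the shares were 46.3% and 40.8%. Hoxd1, with a role in pain-sensing neurons of the mouse, had the highest Msl1 level of all members. At its TSS (position 74601037 of chromosome 2), the Msl1 library held 43 reads, 4.94 times (3.58 to 6.66), and the Nsl1 library held 33 reads, 3.08 times (2.12 to 4.33). Both intervals lay above 2, which no other member showed. Hoxb1, the gene of the fourth segment of the hindbrain, was high in Msl1 only: at its TSS (96227066 of chromosome 11) the Msl1 library held 40 reads, 2.29 times (1.64 to 3.12), and the Nsl1 library held 19 reads, 0.984 times (0.592 to 1.54). Hoxa2, which sets the identity of the second branchial arch, was similar, and at its TSS (52115412 of chromosome 6) the Msl1 library held 21 reads, 2.17 times (1.34 to 3.32), and the Nsl1 library held 16 reads, 1.30 times (0.743 to 2.11).

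Hoxb2, the paralogue of Hoxa2 in HoxB, had more Msl1 reads over a higher flank level: the Msl1 library held 26 reads, 1.49 times (0.973 to 2.18), and the Nsl1 library held 12 reads, 0.621 times (0.321 to 1.09), and this Nsl1 value was the second lowest of the 38. Against genome bins of the same GC content, Msl1 was at 2.26 times at Hoxb2 and 1.49 times at Hoxa2. Hoxa3, needed for thymus and parathyroid, had equal values in both libraries: the Msl1 library held 25 reads, 2.58 times (1.67 to 3.81), and the Nsl1 library held 32 reads, 2.60 times (1.78 to 3.67). The start used for it, 52122648, is that of a gene model that begins at its start codon. At the other annotated starts of Hoxa3, 52133854 and 52163066, Msl1 was at 1.03 and 2.17 times and Nsl1 at 1.22 and 1.30 times. For Hoxb3 the levels were 1.03 in Msl1 and 1.24 in Nsl1, and for Hoxd3 1.49 and 1.68. The start used for Hoxd3 is that of a short model inside the gene, and over its 6 annotated starts Msl1 ran from 1.49 to 2.99 and Nsl1 from 0.561 to 1.68.

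Group 4 spread the most of all groups in Msl1, from 0.687 to 3.79 times. Hoxd4, which shapes the neck vertebrae, had the second highest Msl1 level: at its TSS (74565131 of chromosome 2) the Msl1 library held 33 reads, 3.79 times (2.61 to 5.33), and the Nsl1 library held 16 reads, 1.49 times (0.854 to 2.43). Hoxa4 showed the reverse in the window at its start, with more Nsl1 than Msl1: at its TSS (52141702 of chromosome 6) the Msl1 library held 13 reads, 1.34 times (0.715 to 2.30), and the Nsl1 library held 36 reads, 2.92 times (2.05 to 4.05). Hoxb4, known for its effect on blood stem cells, was at the flank level in both at the start used. There the Msl1 library held 12 reads, 0.687 times (0.355 to 1.20), and the Nsl1 library held 15 reads, 0.777 times (0.435 to 1.28). This window was among the 3 lowest in Msl1. The start used lies 2086 bases from the start codon. A stretch of 1 kb centred in an untranslated region of Hoxb4, chr11:96179530-96180529, held 40 Nsl1 reads, 2.07 times (1.48 to 2.82), and 18 Msl1 reads, 1.03 times. Hoxc4 was at 1.78 times in Msl1 and 1.71 times in Nsl1, with both intervals above 1.

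Of the 11 genes of groups 5 to 8, which act in the thorax, 2 were at 2 or more times in Msl1 and 1 in Nsl1. Beside these counts stand 46.3% and 40.8% of all protein-coding TSSs around their own flanks. Hoxa7 had the highest Nsl1 level of all members: at the start used (52167504 of chromosome 6) the Msl1 library held 26 reads, 2.69 times (1.76 to 3.94), and the Nsl1 library held 46 reads, 3.74 times (2.74 to 4.98). A longer Hoxa7 model starts at 52171853, and there the picture turned, with 65 Msl1 reads, 6.72 times the flank level (5.18 to 8.56), and 27 Nsl1 reads, 2.19 times (1.45 to 3.19). That Msl1 level is above those at all 38 starts used. Hoxa5, needed for the lung and airways, was the other gene high in Msl1: at its TSS (52154586 of chromosome 6) the Msl1 library held 26 reads, 2.69 times (1.76 to 3.94), and the Nsl1 library held 19 reads, 1.54 times (0.929 to 2.41). Hoxa6, next to it, had 1.96 times in Msl1 and 0.812 times in Nsl1.

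The HoxB genes of these groups had lower Msl1 levels over their flanks than Hoxa5, Hoxa6 and Hoxa7. Against genome bins of the same GC content this order turned for Hoxb5 (2.15) and Hoxb8 (2.03), which stood above Hoxa5 (1.76), Hoxa6 (0.940) and Hoxa7 (1.02). Hoxb5 and Hoxb6 were both at 1.49 times in Msl1 and at 1.29 and 0.673 times in Nsl1. Hoxb7 was at 0.917 and 0.932 times, at a start 2471 bases from its start codon. Hoxb8, known from microglia and grooming behaviour, was at 1.72 times in Msl1 (1.16 to 2.45) and 0.880 times in Nsl1. In HoxC, Hoxc5 and Hoxc6 each had 19 Msl1 reads (1.47 times) and 23 Nsl1 reads (1.64 times), at starts more than 4 kb apart. Hoxc8, a gene of forelimb motor neurons, was among the 3 lowest in both libraries: the Msl1 library held 10 reads, 0.776 times (0.372 to 1.43), and the Nsl1 library held 8 reads, 0.570 times (0.246 to 1.12). Hoxd8 was at 1.84 times in Msl1 and 0.841 times in Nsl1. At its other annotated starts, 74542672 and 74542962, Msl1 was at 2.53 and 2.18 times and Nsl1 at 1.59 and 1.03 times.

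Of the 16 genes of groups 9 to 13, which act in the trunk, limbs, tail and genital tract, 12 were at 2 or more times in Msl1 and 1 in Nsl1, where the shares over all protein-coding TSSs around their own flanks were 46.3% and 40.8%. Against genome bins of the same GC content, where 14% of all protein-coding TSSs were at 2 or more times in Msl1, 2 of the 16 were. Their median was 2.23 in Msl1 and 1.46 in Nsl1, against 1.78 and 1.49 in groups 1 to 4 and 1.49 and 0.932 in groups 5 to 8. The 4 genes of group 9 were between 2.02 and 2.86 times in Msl1, and against genome bins of the same GC content between 0.790 and 1.54 times. At Hoxb9, which patterns the ribs, the TSS (96132837 of chromosome 11) had the most Msl1 reads of any member: the Msl1 library held 50 reads, 2.86 times (2.13 to 3.78), and the Nsl1 library held 26 reads, 1.35 times (0.879 to 1.97). At Hoxa9, known from blood formation and leukaemia (52176150 of chromosome 6), the Msl1 library held 27 reads, 2.79 times (1.84 to 4.06), and the Nsl1 library held 21 reads, 1.71 times (1.06 to 2.61). At Hoxc9, which marks motor neurons of the thorax (102807463 of chromosome 15), the Msl1 library held 26 reads, 2.02 times (1.32 to 2.96), and the Nsl1 library held 11 reads, 0.784 times (0.391 to 1.40). This start lies 4621 bases from the start codon. A stretch of 1 kb centred in coding sequence of Hoxc9, chr15:102812034-102813033, held 48 Msl1 reads, 3.72 times (2.75 to 4.94), and 16 Nsl1 reads, 1.14 times. At Hoxd9 (74535737 of chromosome 2), the Msl1 library held 18 reads, 2.07 times (1.23 to 3.27), and the Nsl1 library held 19 reads, 1.78 times (1.07 to 2.77).

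In Msl1 over the flanks, groups 10 to 12 were at 2 or more times in HoxA and HoxD and mixed in HoxC. None of them reached 2 times in Nsl1. Against genome bins of the same GC content, Msl1 was at 2.45 times at Hoxd10. It was at 0.938 times at Hoxa10, 1.04 at Hoxa11, 0.709 at Hoxd11 and 1.13 at Hoxd12 by that rule. Hoxd11, which with Hoxa11 forms the forearm and kidney, had the third highest Msl1 level over the flanks: at its TSS (74520489 of chromosome 2) the Msl1 library held 28 reads, 3.22 times (2.14 to 4.65), and the Nsl1 library held 17 reads, 1.59 times (0.925 to 2.54). The start used for Hoxd11 is that of a gene model that begins at its start codon. At its other annotated start, 74520056, Msl1 was at 2.87 times and Nsl1 at 2.06 times. At Hoxa11 (52196213 of chromosome 6), the Msl1 library held 21 reads, 2.17 times (1.34 to 3.32), and the Nsl1 library held 14 reads, 1.14 times (0.622 to 1.91). Hoxa10, needed in the uterus, had the same number of Msl1 reads as Hoxa3: at its TSS (52184938 of chromosome 6) the Msl1 library held 25 reads, 2.58 times (1.67 to 3.81), and the Nsl1 library held 11 reads, 0.893 times (0.446 to 1.60). Hoxd10, a gene of hindlimb motor neurons, was close to it: at its TSS (74529147 of chromosome 2) the Msl1 library held 24 reads, 2.76 times (1.77 to 4.11), and the Nsl1 library held 17 reads, 1.59 times (0.925 to 2.54).

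Hoxd12, expressed in the limb bud, had its TSS at 74512986 of chromosome 2, where the Msl1 library held 18 reads, 2.07 times (1.23 to 3.27), and the Nsl1 library held 16 reads, 1.49 times (0.854 to 2.43). Hoxc12 had the highest Msl1 level of HoxC in the windows at the starts used: at its TSS (102767188 of chromosome 15) the Msl1 library held 30 reads, 2.33 times (1.57 to 3.32), and the Nsl1 library held 20 reads, 1.42 times (0.870 to 2.20). Its neighbours Hoxc10 and Hoxc11 were at 1.47 and 1.55 times in Msl1 and at 1.50 and 0.926 times in Nsl1.

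The 4 genes of group 13, which shape digits, tail, hair and genitals, did not share a level. Hoxa13 was the lowest member in Msl1 and among the 3 lowest in Nsl1: at its TSS (52210796 of chromosome 6) the Msl1 library held 6 reads, 0.620 times (0.228 to 1.35), and the Nsl1 library held 8 reads, 0.650 times (0.280 to 1.28). Hoxd13, its partner in the digits, was higher in Msl1: at its TSS (74506367 of chromosome 2) the Msl1 library held 24 reads, 2.76 times (1.77 to 4.11), and the Nsl1 library held 18 reads, 1.68 times (0.997 to 2.66). The Msl1 intervals of these genes over the flanks did not overlap. Against genome bins of the same GC content, Msl1 was at 0.604 times at Hoxd13 and 0.179 times at Hoxa13. The start used for Hoxd13 is that of a gene model that begins at its start codon. Hoxb13, of the tail and prostate, lay at 96055630 of chromosome 11, where the Msl1 library held 40 reads, 2.29 times (1.64 to 3.12), and the Nsl1 library held 21 reads, 1.09 times (0.673 to 1.66). Hoxc13, needed for hair and nails, was at 2 or more times in Nsl1 only in the window at its start: at its TSS (102751534 of chromosome 15) the Msl1 library held 17 reads, 1.32 times (0.768 to 2.11), and the Nsl1 library held 33 reads, 2.35 times (1.62 to 3.30). The highest Msl1 stretch of 1 kb in HoxC is centred 800 bases after this start, with 54 reads, 4.19 times (3.15 to 5.47).

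Across the paralogue group number, the Spearman correlation with the level was 0.0774 for Msl1 and -0.0814 for Nsl1 over the 38 genes, so the bands above do not form a slope, and genes are not independent replicates. The levels of Msl1 and Nsl1 at the same start had a Pearson correlation of 0.452 and a Spearman correlation of 0.387 over the 38 genes, which share flanks and base composition within a cluster. Over 22278 protein-coding TSSs these were 0.570 and 0.669. By cluster, 7 of 10 HoxA genes, 3 of 10 HoxB genes, 2 of 9 HoxC genes and 7 of 9 HoxD genes were at 2 or more times in Msl1. In Nsl1 it was 3, 0, 1 and 1. Over all protein-coding TSSs around their own flanks, 46.3% in Msl1 and 40.8% in Nsl1 were at 2 or more times. The Msl1 order of the clusters rested on the background. With the higher-coordinate flank alone the Msl1 counts were 8, 7, 1 and 7, and with the lower-coordinate flank alone 7, 1, 2 and 7. Against genome bins of the same GC content they were 0, 4, 2 and 2, where the share of all protein-coding TSSs was 14%.

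These counts were different when set against genome bins of the same GC content. Start sites were not left out of those bins, so at high GC content they can hold other promoters. Against genome bins with the same GC content, which was tried at the start sites after the data had been seen, 8 members were at 2 or more times in Msl1 and 0 in Nsl1, against 14% and 21.3% of 22278 protein-coding TSSs by the same rule. The medians were 1.30 and 0.991 over the members and 1.10 and 1.19 over those TSSs. The interval lay above the level of such bins at 13 members in Msl1 and 6 in Nsl1, against 27.2% and 32.6%. Of the 8, 4 were also at 2 or more times over the flanks, namely Hoxb1, Hoxc12, Hoxd4 and Hoxd10. By this rule 3 of 11 genes of groups 1 to 4, 3 of 11 of groups 5 to 8 and 2 of 16 of groups 9 to 13 were at 2 or more times in Msl1. Hoxd1, with a GC content of 68.4% within 500 bases, came to 1.11 times in Msl1 and 1.27 times in Nsl1, and Hoxa7, at 60.9%, to 1.02 and 1.90 times. Hoxa13, at 76.1%, came to 0.179 and 0.426 times. The part of base composition in the differences between members was not tested further.

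Compared read for read, the Hox clusters held more Msl1 than Nsl1. Per distinct read of each library, the Msl1 to Nsl1 ratio was 1.48 over the 4 clusters (1.44 to 1.53, exact binomial interval), with 1.55 in HoxA, 1.35 in HoxB, 1.55 in HoxC and 1.67 in HoxD. Per read in the flanks it was 1.33 (1.29 to 1.37), and in HoxB 1.17 (1.11 to 1.22). At the start sites the interval of this ratio lay above 1 at 13 of the 38 genes, against 15.7% of 21380 protein-coding TSSs with reads in both libraries. These were Hoxa6, Hoxa10, Hoxb1, Hoxb2, Hoxb6, Hoxb8, Hoxb9, Hoxb13, Hoxc9, Hoxc12, Hoxd1, Hoxd4 and Hoxd11. It lay below 1 at 1, Hoxa4, with a ratio of 0.461 (0.224 to 0.891), against 12.2% of the protein-coding TSSs. The largest ratio was that of Hoxc9 at 3.02 (1.44 to 6.77). The median over the Hox genes was 1.67, over all protein-coding TSSs 1.03 and over those rich in CpG 1.24. More Msl1 than Nsl1 reads at the start sites was not particular to the Hox genes. Within 500 bases of the TSS, the Hox genes held 893 Msl1 and 742 Nsl1 reads. The 33 homeobox genes outside the clusters held 774 and 508, and the 11 mESC markers 331 and 220. The 16 regulators of Hox genes held 502 and 426, and the 9 TALE cofactors 204 and 176.

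Summed over the 38 genes, Msl1 rose from 1.44 times the surrounding level between 2 and 3 kb upstream to its highest bin 500 to 550 bases downstream of the TSS, at 2.89 times. Over all protein-coding TSSs the highest bin lay 150 to 200 bases downstream, at 3.36 times, and the level upstream was 1.04 times. Nsl1 at the Hox genes was highest in the last 50 bases before the TSS, at 2.22 times, and the same bin was the highest over all protein-coding TSSs, at 3.94 times. The bins of 50 bases hold few reads for 38 genes, and the place of a maximum is not exact.

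From 500 to 2000 bases downstream the Msl1 level at the Hox genes was 1.03 times that within 500 bases of the TSS (0.941 to 1.12, exact binomial interval), from 1373 and 893 reads. Over all protein-coding genes this ratio was 0.798. The Nsl1 ratio was 0.819 at the Hox genes (0.742 to 0.903) and 0.477 over all protein-coding genes. Over 33 homeobox genes outside the clusters this ratio was 1.03 in Msl1 and 0.954 in Nsl1. It was 1.08 and 0.651 over 16 regulators of Hox genes and 0.846 and 0.636 over 9 TALE cofactors. Over 11 mESC markers it was 1.74 and 0.921. No background was taken off the reads, so a lower peak at the TSS also raises the ratio. In the first 500 bases downstream, Nsl1 was at 1.38 times the surrounding level at the Hox genes and 2.42 times over all protein-coding TSSs. Among single members the Msl1 ratio ran from 0.381 at Hoxd11 to 5.22 at Hoxa13, where the window at the TSS held 6 reads.

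**Figure D4:**
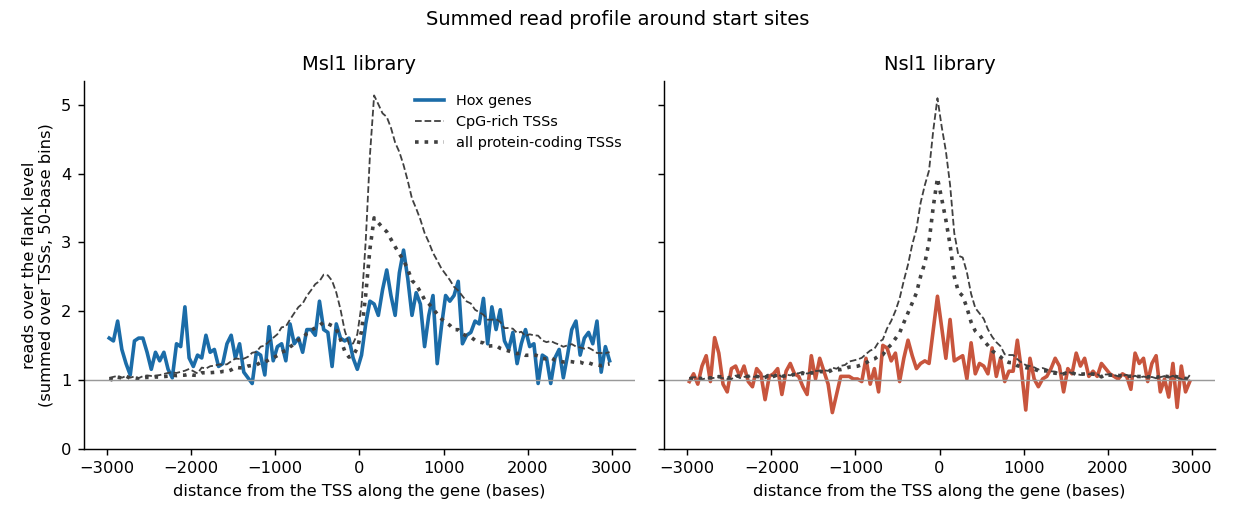
Reads in bins of 50 bases around the TSS over the surrounding level (y axis), summed over the 38 Hox genes (coloured line), over protein-coding TSSs rich in CpG other than Hox (dashed) and over all protein-coding TSSs (dotted), against the distance from the TSS along the gene in bases (x axis). The maximum of the Hox line (2.89 for Msl1 and 2.22 for Nsl1) is lower than the maxima of the other lines, and for Msl1 its mean between 2 and 3 kb upstream is higher than theirs (1.44 against 1.07 and 1.04).

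Of the 38 Hox start sites, 20 were rich in CpG, with a CpG count of at least 0.6 of that expected from base content and a GC content of at least 55% within 500 bases. At those 20 the median was 1.89 in Msl1 and 1.44 in Nsl1, while over 8470 protein-coding TSSs of that kind it was 3.11 and 2.58. At 2 or more times were 9 of the 20 in Msl1, against 82.0% of the protein-coding TSSs of that kind, and 5 of the 20 in Nsl1, against 66.2%. The median of Hox promoters rich in CpG thus lay below that of promoters of like composition in both libraries. Over the 38 genes the Spearman correlation of the level with the CpG count over that expected was 0.316 for Msl1 and 0.133 for Nsl1.

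In the 250 bases before and 50 after the TSS, on both strands, the letters GGGCGG, which the factor Sp1 binds, were found at 17 of 38 Hox promoters, or 44.7%, and at 43.9% of all protein-coding promoters. TATAAA, the TATA box, was found at 5, or 13.2%, against 13.3%. TGATNNAT, a site of Hox proteins with their Pbx partners, was found at 6, or 15.8%, against 7.85%. These were Hoxa7, Hoxb1, Hoxb2, Hoxb9, Hoxc11 and Hoxd11, of which Hoxb1 is known to sustain its own expression through such sites. The letters GAGAGAGA, a repeat bound by GAGA factors, were found at 6, or 15.8%, against 4.11%, namely Hoxa2, Hoxb4, Hoxb6, Hoxc8, Hoxc11 and Hoxc13. Runs of GA hold the motif many times in overlap, 30 times at Hoxa2 and 26 times at Hoxb6. TATCGATA was found at none of the Hox promoters and at 0.00898% of all. A match of letters is not a bound site.

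The highest stretches of 1 kb that lay wholly inside a cluster were not all at the start sites used. The highest of all, in HoxA at chr6:52170950-52171949, held 68 reads, 7.03 times the flank level (5.46 to 8.91) for Msl1, and 21 Nsl1 reads. It is centred 403 bases into the longest Hoxa7 model, in its intron, some 4 kb before the Hoxa7 start used. The next in HoxA, at chr6:52153350-52154349, is centred in coding sequence of Hoxa5 and held 44 reads, 4.55 times the flank level (3.30 to 6.10). For Nsl1 the highest in HoxA was chr6:52141450-52142449, before Hoxa4 and within introns of Hoxa3 and 2700086A05Rik, with 50 reads, 4.06 times the flank level (3.01 to 5.35). A stretch that overlaps it, chr6:52141950-52142949, was the third highest of HoxA in Msl1 and held 42 reads, 4.34 times the flank level (3.13 to 5.87). It is centred before Hoxa4 and reaches beyond the window at its start.

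In HoxB the highest Msl1 stretch, chr11:96132930-96133929 in the intron of Hoxb9, held 64 reads, 3.67 times the flank level (2.82 to 4.68). No Nsl1 stretch of HoxB passed 2.17 times. In HoxC the highest in both libraries were centred in coding sequence of Hoxc13: chr15:102751834-102752833 with 54 reads, 4.19 times the flank level (3.15 to 5.47) for Msl1, and chr15:102751634-102752633 with 27 reads, 1.92 times the flank level (1.27 to 2.80) for Nsl1. The former is centred 800 bases after the Hoxc13 start, and the window at the start itself was at 1.32 times in Msl1. In HoxD the highest in both lay at Hoxd1, chr2:74600667-74601666 with 46 reads, 5.29 times the flank level (3.87 to 7.06) for Msl1 and chr2:74600367-74601366 with 35 reads, 3.27 times the flank level (2.28 to 4.55) for Nsl1. The second Msl1 stretch of HoxD, chr2:74536967-74537966 in coding sequence of Hoxd9, held 40 reads, 4.60 times the flank level (3.29 to 6.26). Choosing the highest of many stretches raises the value, and these are given as positions and not as calls.

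Protein-coding genes within 250 kb of the clusters numbered 23, and over the same flanks 12 of them were at 2 or more times in Msl1 and 9 in Nsl1, beside 19 and 5 of the 38 Hox genes and 46.3% and 40.8% of all protein-coding TSSs around their own flanks. At HoxA, the homeobox gene Evx1 was highest in Msl1 with 39 reads, 4.03 times the flank level, and lowest in Nsl1 with 13 reads, 1.06 times the flank level. Skap2 was the reverse, with 1.45 times in Msl1 and 3.005 times in Nsl1. At HoxB, Snf8, a gene of the sorting of membrane proteins, had the highest Nsl1 level with 146 reads, 7.56 times the flank level, above that of every Hox gene. Igf2bp1 had the highest Msl1 level there with 66 reads, 3.78 times the flank level, and Gip was lowest in both libraries at 0.917 and 0.984 times. At HoxC, Hnrnpa1, for an RNA-binding protein, was highest in Msl1 with 69 reads, 5.35 times the flank level and Copz1, for a vesicle coat subunit, in Nsl1 with 75 reads, 5.34 times the flank level. The lowest there were Gm17649 in Msl1 at 0.776 times and Nfe2 in Nsl1 at 0.784 times. At HoxD, Lnp was highest in both, with 38 reads, 4.37 times the flank level in Msl1 and 62 reads, 5.79 times the flank level in Nsl1, and Gm14396, inside the cluster, lowest in both at 1.38 and 0.654 times. Several of these genes lie in the flanks themselves and raise the level that the Hox genes are set against.

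**Figure D5:**
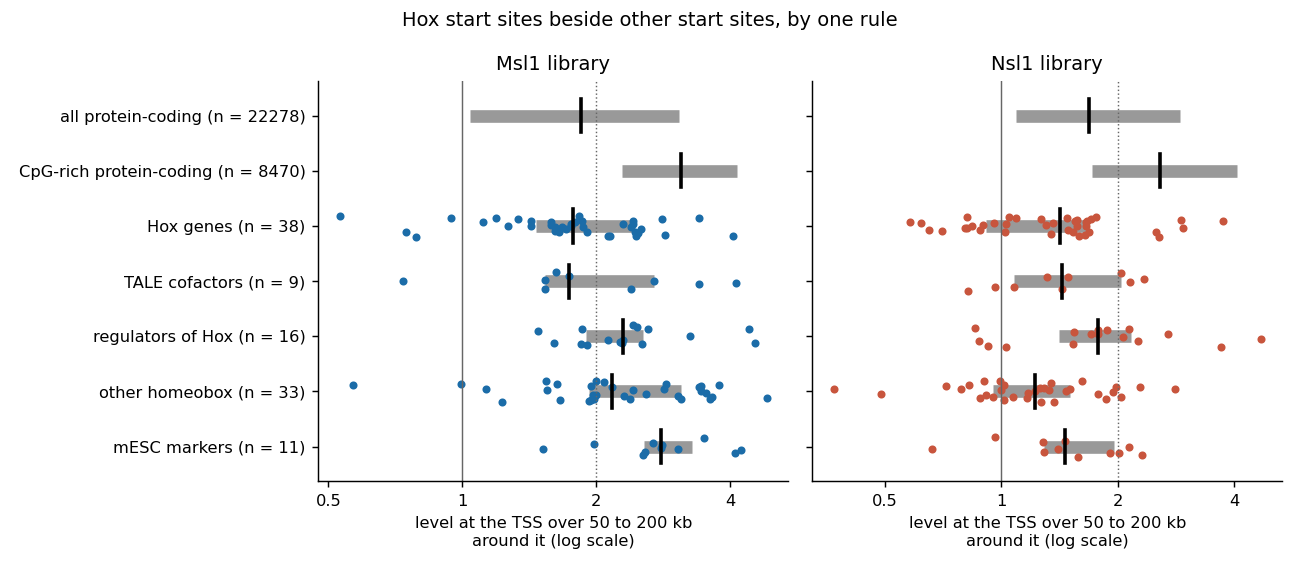
Level at the TSS over that 50 to 200 kb around it (x axis, log scale) in the Msl1 library (left) and the Nsl1 library (right) for Hox genes, 4 comparison lists and 2 sets of protein-coding TSSs, with points for single genes, grey bars from the first to the third quartile and black lines at the median. The Hox median lies at 1.77 for Msl1 and 1.42 for Nsl1, under the medians of TSSs rich in CpG at 3.11 and 2.58.

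Partners, regulators and relatives of the Hox genes were read by the same rule, and each count stands against 46.3% of all protein-coding TSSs for Msl1 and 40.8% for Nsl1. The TALE cofactors, which bind DNA together with Hox proteins, were all 9 listed, and 4 were at 2 or more times in Msl1 and 3 in Nsl1, with medians of 1.74 and 1.44. Meis1 was the highest of them in Msl1, at 4.12 times. Of 16 regulators of Hox genes, which include retinoic acid receptors and Polycomb subunits, 11 were at 2 or more times in Msl1 and 6 in Nsl1, with medians of 2.29 and 1.78. Of 33 homeobox genes outside the clusters, 19 were at 2 or more times in Msl1 and 3 in Nsl1, with medians of 2.17 and 1.22. In Nsl1 the other homeobox genes had the lowest median of these lists, 1.22. The Hox genes at 1.42 stood close to the TALE cofactors at 1.44 and the mESC markers at 1.46. The median of all protein-coding TSSs was 1.68.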

How the data were processed

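ChIP-seq reads of Msl1 and Nsl1 in mESCs were examined, with 1 library per antibody. Per the labels, CASAVA 1.8.2 and Bowtie 0.12.7 were used and the build is mm9. The authors deposited 1 line per aligned read with position, strand and a score, which is 255 on every line and was not used. The nuclear reads numbered 23853761 for Msl1 and 26071765 for Nsl1, and 81.7% and 95.4% of them were kept after removal of repeated positions and strands. Mitochondrial reads were left out.

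Reads were moved to the centre of the fragment, whose length was taken from the correlation between strands on 3 autosomes and was 206 bases for Msl1 and 139 bases for Nsl1. Genes and TSSs came from a GENCODE annotation of the same build. Per gene, the start shared within 100 bases by most protein-coding transcripts was used, with ties to the start nearest the start codon. Every listed Hox gene was given its values. Counts and intervals are given in full for members at 2 or more times the flank level and for the 3 highest and 3 lowest per library. Of other genes within 250 kb, the highest and lowest per cluster are named. Members and gene lists were chosen with earlier results of these data known. One gene of the HoxA cluster is not reported here.

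Python 3.11.15, numpy 2.4.6, pandas 2.3.3, scipy 1.17.1, numba 0.67.0 and matplotlib 3.10.9 were used. The counting at start sites and the search for unique words were tested on simulated data. The windows at Hox start sites held 6 to 50 Msl1 reads and 8 to 46 Nsl1 reads. Single libraries allowed no test between samples. Of 22357 protein-coding genes, 22278 had reads in the flanks of both libraries and entered the shares over all genes. Alternatives were all reads kept, other flanks, windows, start sites and read shifts, unique bases, genome bins of the same GC content and the whole genome as background.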

Additional observations from a re-analysis of the deposited data

How the results depend on the processing

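No paired analysis was possible because each antibody had 1 library, and for the same reason no library could be left out. Cluster and start site results were recomputed with 1 choice changed at a time. Windows, other start sites, 5 to 50 kb as background and unmoved reads were tried for start sites only, and leaving out 1 kb around Hox TSSs for clusters only. Over the 4 clusters together, the Msl1 level (1.40 over both flanks) was 1.27 with the lower-coordinate flank alone, 1.56 with the higher-coordinate flank alone, 1.48 with 2 kb around TSSs left out of the flanks, 1.37 per unique base, 1.53 against genome bins of the same GC content, 1.27 without 1 kb around Hox TSSs and 2.39 over the whole genome level. The Nsl1 level (1.05) was 1.03, 1.08, 1.10, 1.02, 1.12, 1.01 and 1.62 in the same order. The Msl1 to Nsl1 ratio of 1.48 was 1.41 without 1 kb around Hox TSSs and 1.33 per read in the flanks.

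The count of 19 Msl1 start sites at 2 or more times was 33 over the whole genome level, 6 against 5 to 50 kb on both sides of the TSS, which lie mostly inside the cluster, and 8 against bins of the same GC content. The 23 Msl1 start sites with an interval above the flank level were 35 with windows of 2000 bases, 12 against 5 to 50 kb and 13 against bins of the same GC content. The Msl1 median of 1.99 was 3.09, 1.32 and 1.30 over the whole genome, 5 to 50 kb and bins of the same GC content. The 5 Nsl1 start sites at 2 or more times were 15 over the whole genome level, 0 with windows of 2000 bases and 0 against bins of the same GC content. The 10 Nsl1 start sites with an interval above the flank level were 24 over the whole genome, 5 with windows of 250 bases and 6 against bins of the same GC content. The Nsl1 median of 1.39 was 1.85 over the whole genome. Shares over all protein-coding TSSs were taken only around their own flanks and against bins of the same GC content. At 2 or more times these were 46.3% and 14% in Msl1 and 40.8% and 21.3% in Nsl1. With an interval above the background they were 52.8% and 27.2% in Msl1 and 50% and 32.6% in Nsl1. Counts by the other settings have no share beside them and show only how the count moved.

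Some values crossed the level of their background. HoxB in Msl1 was 0.915 with the lower-coordinate flank alone, and HoxD in Nsl1 0.921 against bins of the same GC content. At single start sites in Msl1, bins of the same GC content gave 0.940 at Hoxa6, 0.938 at Hoxa10, 0.508 at Hoxd8, 0.790 at Hoxd9, 0.709 at Hoxd11 and 0.604 at Hoxd13, and 5 to 50 kb gave 0.929 at Hoxd8. In Nsl1, bins of the same GC content gave 0.833 at Hoxd9, and the TSS farthest upstream gave 0.893 at Hoxa9, 0.926 at Hoxc4 and 0.712 at Hoxc6. Of these, the bins of the same GC content at start sites were chosen after seeing the data, as were the split of HoxB and the values at every annotated start, by which 21 members were at 2 or more times in Msl1 and 6 in Nsl1 at 1 start at least. No share over all genes was taken for every annotated start. The cause of these shifts was not tested. Keeping all reads or leaving read starts unmoved moved none of the single values outside its interval. Intervals cover counting error only, and the windows at start sites held only 6 to 50 reads.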
